A study of Mus musculus with 9 samples.

Results

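The 6 genes described here encode the SOXD and SOXE transcription factors. Sox5, Sox6 and Sox13 form the SoxD subgroup, and Sox8, Sox9 and Sox10 form the SoxE subgroup. They were taken from the 21887 protein-coding genes of the mouse genome by name. A TWIST1 ChIP-seq peak was given to one of them when its summit lay inside the gene body or, outside all genes, when the gene was the nearest within 100 kb.

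TWIST1 occupancy had been measured in embryoid bodies, aggregates of differentiating mouse embryonic stem cells, from cells of the A2loxcre line with the strain label C57BL/6. In the OE group, endogenous Twist1 was deleted (Twist1-/-) and the cells carried a doxycycline-inducible Flag-Twist1 cassette. The KO group was Twist1-/- without that cassette, so every library came from cells without endogenous Twist1. Both groups were differentiated for 3 days and received doxycycline for 16 h before collection. Peak lists were analysed from 4 OE ChIP libraries, 2 KO ChIP libraries (numbered 2 and 3) and 1 KO input library. The 2 OE input samples were not analysed here. The TWIST1 in these libraries was expressed from the induced cassette, and the cells' type could not be checked against markers, since a peak list holds no expression values.

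SOXE proteins are high-mobility-group factors with a transactivation domain and are known for their part in neural crest cells and in the cartilage, glia and melanocytes that crest cells can form. SOXD proteins lack such a domain, dimerise through a coiled coil and act beside SOXE proteins. SOX5 and SOX6 together with SOX9 are known as the SOX trio of cartilage. TWIST1 is a basic helix-loop-helix factor of mesenchyme and cranial neural crest that binds E-boxes, short DNA motifs of the form CANNTG.

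The 4 OE lists differed in length and in background. They held 22308, 106750, 87385 and 14078 peaks in libraries 1 to 4, against 94 and 62 in the KO ChIP lists and 1642 in the KO input list. The background pileup is the caller's background, in fragments, that was most common among the checked peaks of a list. Recovered from each peak's fold and p-value, it stood at 1.00 in OE library 1 and 1.20 in OE library 4. The other OE libraries had 5.38 (library 2) and 5.29 (library 3), close to 4.73 and 5.09 for KO ChIP and below 6.46 for the KO input. OE libraries 1 and 4, and 2 and 3, are named below as sets of libraries with low and high background. They are not groups of the study.

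Peaks were listed at 5 of the 6 genes in every OE library and at none of the 6 in either KO ChIP library or in the KO input. The exception was Sox8, which had no peak in OE libraries 1 and 4. Together the genes held 16, 99, 79 and 13 peaks in OE libraries 1 to 4, with a mean of 51.8 ± 43.8 (SD, n = 4). The high-background libraries 2 and 3 held most of these peaks, and all 4 OE libraries lay above the 0 peaks of both KO ChIP libraries. The difference in mean log2(number of peaks + 1) was 5.22, with an exact two-sided permutation p of 0.0667, the smallest that 4 libraries against 2 can give. Its size depends on the pseudocount and was 6.19 with a pseudocount of 0.5 peak. Over all protein-coding genes, 35.0% had more peaks in every OE library than in either KO ChIP library, the background for the 5 of 6 found here. The KO lists were so short that 49 protein-coding genes had any peak in them, so 0 KO peaks at the 6 genes is the usual value for any gene. Among the libraries of like background, the values were 99 and 79 peaks in OE against 0 and 0 in KO. The peaks at the 6 genes made up between 0.0717% and 0.0927% of each OE list.

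**Figure D1:**
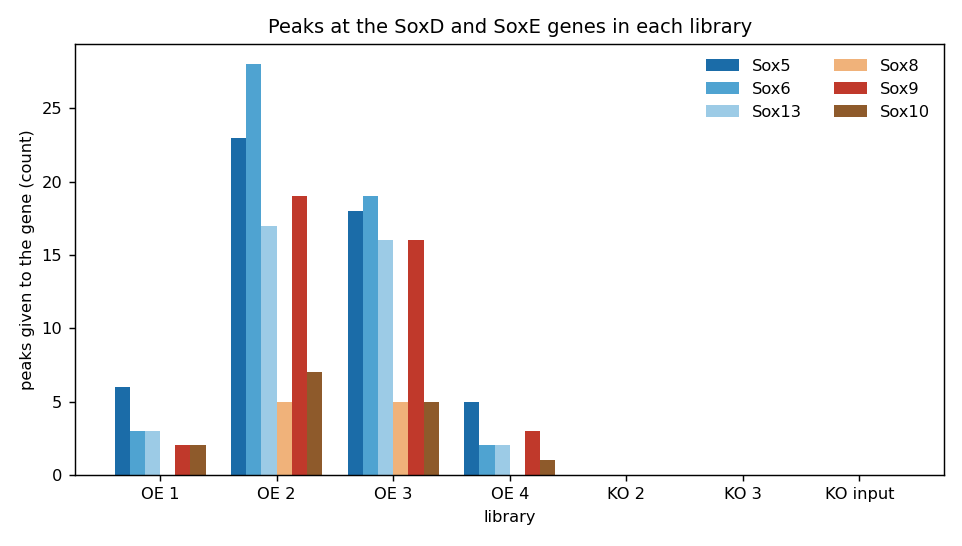
Bars give the number of peaks given to each of the 6 genes (vertical axis, count) in each of the 7 libraries (horizontal axis). OE libraries 2 and 3 hold 99 and 79 peaks in all, OE libraries 1 and 4 hold 16 and 13, and the 3 KO libraries hold none.

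A region was called reproducible when peaks of all 4 OE libraries merged in it and neither a KO ChIP nor an input peak touched it. The genome had 10375 such regions. Sox5 had 4 of them, Sox9 had 2, Sox6, Sox13 and Sox10 had 1 each and Sox8 had none. At least 1 region was thus found at 5 of the 6 genes, against 30.3% of all protein-coding genes. At least 2 were found at Sox5 and Sox9, against 8.45% of genes, and 4 at Sox5 alone, against 1.13%. Gene length bears on these counts. The span of genome given to each gene, its territory, ran from 1154 kb for Sox5 and 690 kb for Sox6 down to 43.5 kb for Sox8 and for Sox10. At the genome's mean density of regions such territories would hold 4.40 regions for Sox5, 2.63 for Sox6, 0.785 for Sox9, 0.505 for Sox13 and 0.166 for each of Sox8 and Sox10. Sox5 with 4 regions and Sox6 with 1 were thus below the number that density gives, while Sox9 with 2, Sox13 with 1 and Sox10 with 1 were above it. Where that number is below 1, any gene with a region is above it. The mean density of 3.81 regions per Mb also takes in 814 Mb over 100 kb from genes, at 1.21 per Mb. No territory reaches there, so the numbers are low for territories.

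**Figure D2:**
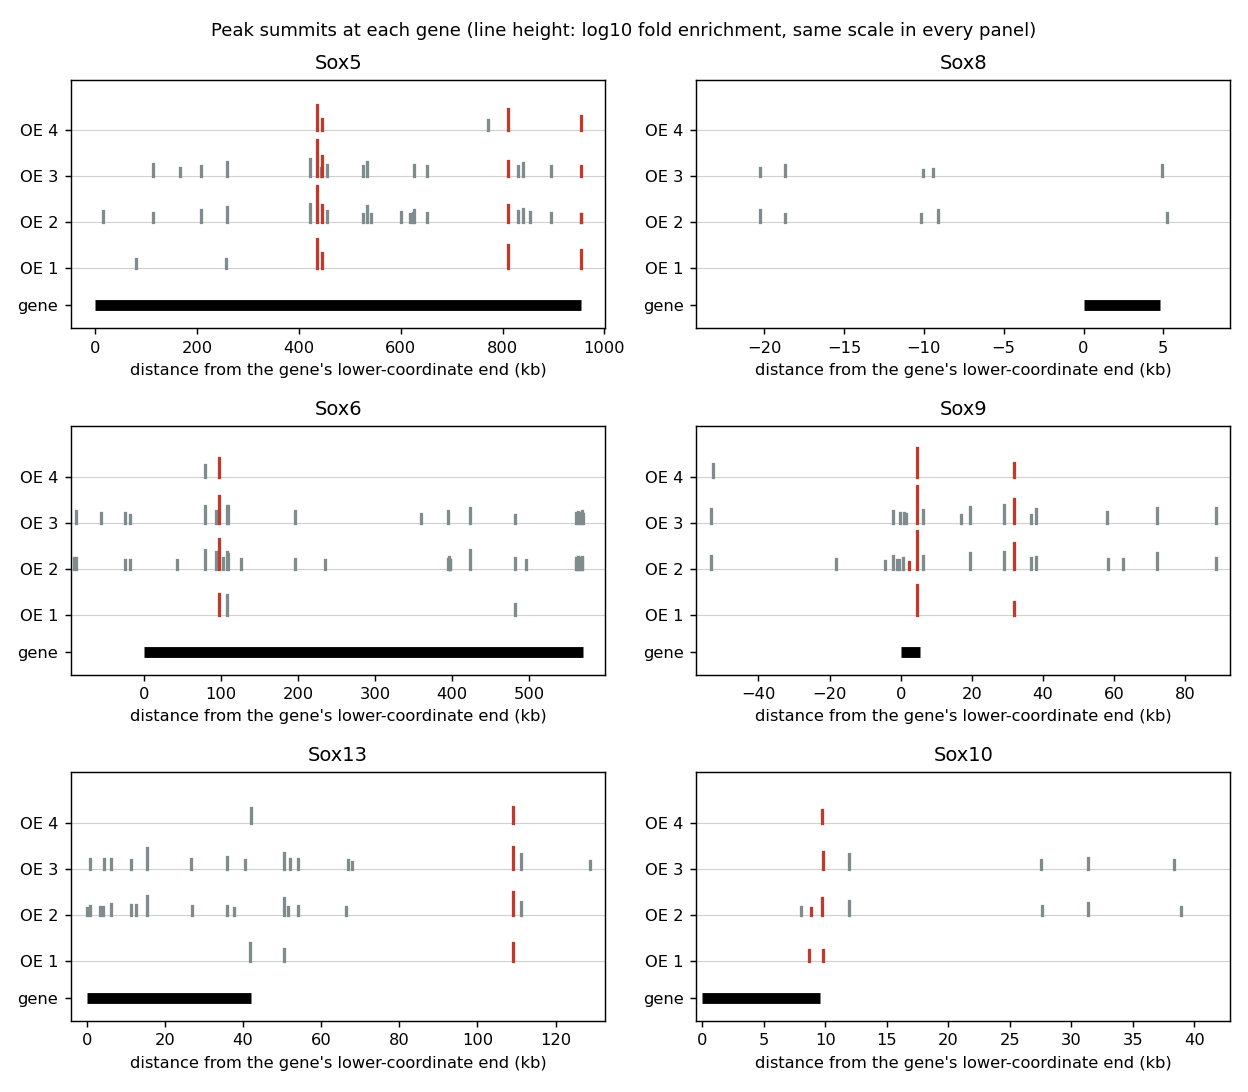
Each panel shows 1 gene, with the distance of each peak summit from the gene's lower-coordinate end (horizontal axis, kb), a row for each OE library and the gene body as a black bar. Line height is the log10 fold enrichment, red lines belong to reproducible regions and grey lines do not. The highest lines are the region inside Sox9 and the region near the middle of Sox5, in all 4 libraries.

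SOX9 is the SOXE factor needed for cartilage formation and is also made early in neural crest. Its region at chr11:112784438-112787388 (mm10, inside the gene, 80.5% of the way along the body from the lower-coordinate end) was the strongest of the 9. Fold enrichment is the peak caller's ratio of pileup to local background at the summit, with 1 added to both. The added 1 weighs more at low background, so an equal ratio gives a lower fold in OE libraries 1 and 4. The folds of this region were 100.8, 317, 281 and 77.2 in OE libraries 1 to 4. The pileups behind these folds were 201, 2020, 1769 and 169 fragments. A percentile is the rank of a fold within its own list. The lists differ in length, and the longer ones hold more weak peaks, so a region's percentiles in different libraries describe each list and show no change between libraries. Each fold was at or above the 98.5th percentile of its own list, and the mean percentile was 99.3 ± 0.681 (SD, n = 4), rank 146 of the 10375 regions. The 4 summits fell within 4 bp of each other.

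The other Sox9 region, chr11:112813423-112814564, lay 26.3 kb beyond the higher-coordinate end of the gene. Its folds were 7.49, 48.0, 36.4 and 7.72. Its percentiles were 35.1, 98.0, 97.0 and 34.7 in OE libraries 1 to 4. Its pileups in OE libraries 1 and 4 were 14 and 16 fragments, against 7 and 8 for the smallest pileups listed at background there. This region was lost when each OE list was shortened to the length of the shortest and when peaks had to reach a −log10 q-value of 10.

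Around Sox9 no other reproducible region was found over a long stretch. The nearest on the lower side lay 2337 kb away at Map2k6, and beyond the region at 26.3 kb the next on the higher side lay 864 kb away at Cog1. The span of 3.21 Mb between those neighbours was set by the regions themselves, so its count of regions is no result. Single libraries were not empty there, since OE libraries 1 to 4 listed 13, 87, 68 and 7 peaks in it.

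SOX10 is the SOXE factor of peripheral glia and melanocytes. Its single region, chr15:79163362-79165021, covered the gene's higher-coordinate end, with the median summit 193 bp beyond it. The folds were 5.49, 13.5, 13.8 and 6.81, at the 13.0th, 88.5th, 88.6th and 25.6th percentiles of the lists, and the mean percentile was 53.9 ± 40.3 (SD, n = 4). The fold was thus above the list's median in OE libraries 2 and 3 and below it in OE libraries 1 and 4, whose lists are shorter. In OE library 1 the region held a pair of peaks of equal fold, each with a pileup of 10 fragments, with summits at 79163575 inside the gene and at 79164703. The region was lost when peaks had to reach a −log10 q-value of 10 and when the lists were shortened to equal length. A second site, chr15:79166159-79167561, 2375 bp beyond the gene, was listed in OE libraries 2 and 3 alone, with folds of 8.46 and 9.38. A KO input peak lay 0.102 Mb from the Sox10 region.

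SOX8, the third SOXE factor, often acts redundantly with the others. Sox8 had 5 peaks in each of OE libraries 2 and 3, none inside the gene body, and all 5 sites were shared by these libraries. The highest fold was 7.05 in OE library 2, at the 69.9th percentile of that list, and 5.56 in OE library 3, at the 55.2nd. The site closest to the gene, chr17:25569899-25571310, spanned its higher-coordinate end, which is its start, with folds of 4.23 and 5.56. In OE libraries 1 and 4, which listed no peak at Sox8, the smallest fold listed at background was 4.00 and 4.09. Folds do not carry over between libraries of unlike background. Whether these sites could have been listed in OE libraries 1 and 4 was not tested.

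SOX5 is a SOXD factor of cartilage, and Sox5 is the longest of the 6 genes, with a body of 954 kb. Its region at chr6:144264094-144265290, 45.7% of the way along the body, had folds of 91.3, 264, 265 and 47.7. Pileups were 182, 1685, 1668 and 104 fragments. The mean percentile was 98.7 ± 1.51 (SD, n = 4), rank 252 of the 10375 regions, and the summits lay within 12 bp of each other. The strongest regions of Sox9 and Sox5 differed by less than the spread of their percentiles, although the fold at Sox9 was the higher in each of the 4 libraries.

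Of the 3 weaker Sox5 regions, chr6:144273171-144274185 was next to the strongest and had folds of 10.5, 14.9, 24.2 and 5.45. The region chr6:144639553-144640156 had folds of 36.9, 14.4, 11.4 and 25.0. Its folds were higher in OE libraries 1 and 4 than in 2 and 3, and its percentiles were 93.2, 89.6, 84.8 and 89.2. The region chr6:144781461-144782773 had folds of 17.0, 3.45, 4.77 and 9.53, also higher in OE libraries 1 and 4 than in 2 and 3. Its summits were spread over 717 bp, and their median was 302 bp inside the gene's higher-coordinate end. They were at 144782258 and 144782294 in OE libraries 1 and 4, and at 144781577 and 144781713 in OE libraries 2 and 3. The folds thus describe unlike summits within the region. OE library 2 had a further peak of equal fold at 144782667. When all 4 summits had to lie within 100 bp of each other, the strongest region alone was left at Sox5. Peaks inside the body were sparse for its length, with 0.231 and 0.189 per 10 kb in OE libraries 2 and 3 against 0.526 and 0.436 over all gene bodies.

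SOX6, the partner of SOX5 in cartilage, is encoded by a gene of 570 kb. Sox6 held the most peaks of the 6 genes in OE libraries 2 and 3, with 28 and 19, but 3 and 2 in OE libraries 1 and 4. Its one region, chr7:115568308-115569528, lay 98.2 kb from the lower-coordinate end, with folds of 25.5, 90.6, 55.5 and 17.3 and a mean percentile of 90.6 ± 9.84 (SD, n = 4). Its percentile was at least 78.6 in each of the 4 lists, and its summits lay within 49 bp. Nearby, chr7:115579278-115579742 was listed in OE libraries 1, 2 and 3 with folds of 19.0, 13.6 and 12.1. The site chr7:115549856-115550452 was listed in OE libraries 2, 3 and 4 with folds of 17.6, 11.9 and 5.90. The number of regions at Sox6 therefore depended on the low-background libraries. It was 2 without OE library 1 and 3 without OE library 4.

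SOX13 is the SOXD factor known from lymphoid and neural tissue. The one region of Sox13, chr1:133490970-133491812, lay 66.9 kb beyond the gene's higher-coordinate end, the start side, and was lost when the distance limit was 50 kb. Its folds were 16.5, 33.1, 28.8 and 10.6, with a mean percentile of 80.7 ± 19.6 (SD, n = 4). A KO input peak lay 0.128 Mb from it. Without OE library 4 the number of regions at Sox13 was 2, the added one at chr1:133432448-133433143 with folds of 6.49, 13.0 and 12.1 in OE libraries 1 to 3.

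The body of Sox13 had more peaks per length than gene bodies at large in the high-background libraries. They numbered 2.37 and 1.90 per 10 kb in OE libraries 2 and 3, against 0.526 and 0.436 over all gene bodies. This was not particular to Sox13, since the 5.55 kb body of Sox9 had 5.41 in both, from 3 peaks each. Sox10 had 2.09 and 0, Sox6 had 0.421 and 0.263, and Sox8 had 0 in both. The highest site in the Sox13 body, chr1:133396600-133398436, had folds of 18.2 and 25.3 and no peak in OE libraries 1 or 4. At background, listing in those libraries began at a fold of 4.00 and 4.09. Their background is unlike that of the high-background libraries, so the folds cannot be set against these limits. Why no peak was listed was not tested. The reverse, a site with peaks in OE libraries 1 and 4 alone, was seen at the gene's start, chr1:133423804-133424444. OE library 1 had a fold of 15.0 and OE library 4 one of 9.53, and OE libraries 2 and 3 listed no peak.

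Promoter sequence was examined where the data bear on it. RefSeq's promoter table (GRCm38.p6) holds 9 windows of 300 bases for Sox5, Sox6, Sox13 and Sox8, from 250 bases before a start site to 50 after, all on the minus strand. Sox9 and Sox10 have no entry there. A peak of at least 1 OE library overlapped 4 of the 9 windows, against 46.0% of all 32851 windows. The Sox5 window, with its start at 143947106, had no peak and lies far inside the gene. No window covers the higher-coordinate end of Sox5 at 144782287, its start side, where the region chr6:144781461-144782773 lies. The sequences below are shown because a peak overlapped their windows, 5′ to 3′ on the gene's strand, with E-boxes (CANNTG, which reads the same on both strands) in capitals. Sox8 is given as all 250 bases before its start at 25570686, which lie outside the gene. For start sites inside the gene body, 30 bases around each E-box are given, or the last 30 before the start where there is none.
Sox8: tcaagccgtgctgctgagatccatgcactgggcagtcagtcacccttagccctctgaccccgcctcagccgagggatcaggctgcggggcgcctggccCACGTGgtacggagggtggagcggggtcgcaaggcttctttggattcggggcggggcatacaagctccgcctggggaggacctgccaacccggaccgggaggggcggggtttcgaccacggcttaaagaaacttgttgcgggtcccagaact
Sox13, start 133424212: gcgcactgcccgccggcctggcgggcgcag
Sox6, start 116031047, first E-box: gtcctttgtagtCACATGtccgggttttcc
Sox6, start 116031047, second E-box: gaataaaaaggtCAAGTGgttacgttcccg
Sox6, start 116031047, E-box nearest the start: ggacaggacagaCACCTGgcaaggcccgcc
Sox6, start 116038744, first E-box: tggtgtagactgCATCTGgggactctgatg
Sox6, start 116038744, second E-box: gagagaggctggCAGATGtaatgagacgcg

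The Sox8 window held 1 E-box of the form CACGTG, with folds of 4.23 and 5.56 in OE libraries 2 and 3. The Sox6 start at 116031047 had 3 E-boxes and folds of 4.86 and 4.61 in the same libraries. The Sox6 start at 116038744 had CATCTG and CAGATG, which are the same motif on opposite strands, and a peak of fold 5.49 in OE library 2 alone. The Sox13 window held no E-box in the 250 bases before the start, and it was under a peak in OE libraries 1 and 4 alone. Over all windows, 66.2% held an E-box in those bases, 14.4% held CATCTG or CAGATG, and 3.46% held CATATG, which none of these 4 windows held. A pair of E-boxes 5 bp apart was in 0.639% of all windows and in none of the 4. Some summits lay outside the 250 bases before the start. In OE library 2 the summit was 414 bp before the Sox8 start and 42 bp after the Sox6 start at 116031047. In OE library 1 it was 43 bp after the Sox13 start. The remaining summits lay within those bases. A match is a string of letters and not a measured binding site.

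The Sox13 window differed from the others in base composition. Its 250 bases were 72.4% G or C with 31 CpG dinucleotides, against medians of 52.4% and 6.00 over all windows. A peak in OE libraries 1 and 4 but not in 2 and 3 was found at 382 windows, 1.16% of all, whose median was 74.0% G or C and 31.0 CpG. The converse, a peak in OE libraries 2 and 3 alone, was found at 22.0% of windows with a median of 58.0% G or C. The Sox8 window with that pattern had 65.6% and the Sox6 window at 116031047, which shares it, had 60.8%. Windows with a peak in all 4 OE libraries, 3114 in number, also had a high median of 69.2% G or C, with 24.0 CpG. Whether base composition bears on which libraries list a peak at these genes was not tested.

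The 9 regions differed in how their percentiles compared between the sets of libraries. Lists 2 and 3 are several times longer than lists 1 and 4, which by itself raises percentiles there, so each gap is read against the median of 17.9 points over all 10375 regions and shows no change in binding. The mean percentile over OE libraries 2 and 3 minus that over 1 and 4 was 1.16 points for the region inside Sox9 and 2.19 for the strongest at Sox5. It was 16.1 for Sox6 and 31.1 for Sox13, on either side of that median. It reached 59.4 for the second Sox5 region, 62.6 for the distal Sox9 region and 69.2 for Sox10, and 96.3% of all regions had a smaller gap than Sox10. The gap was negative for the remaining Sox5 regions, at −3.99 and, beside the gene's higher-coordinate end, −33.3. In the latter region the summits differed between the sets of libraries. The 9 regions' median mean percentile was 80.7, against 71.5 for all regions. Of the 9, 6 lay inside a gene (66.7%, against 57.1% of all) and 2 within 1 kb of a gene end (22.2%, against 30.9%).

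**Figure D3:**
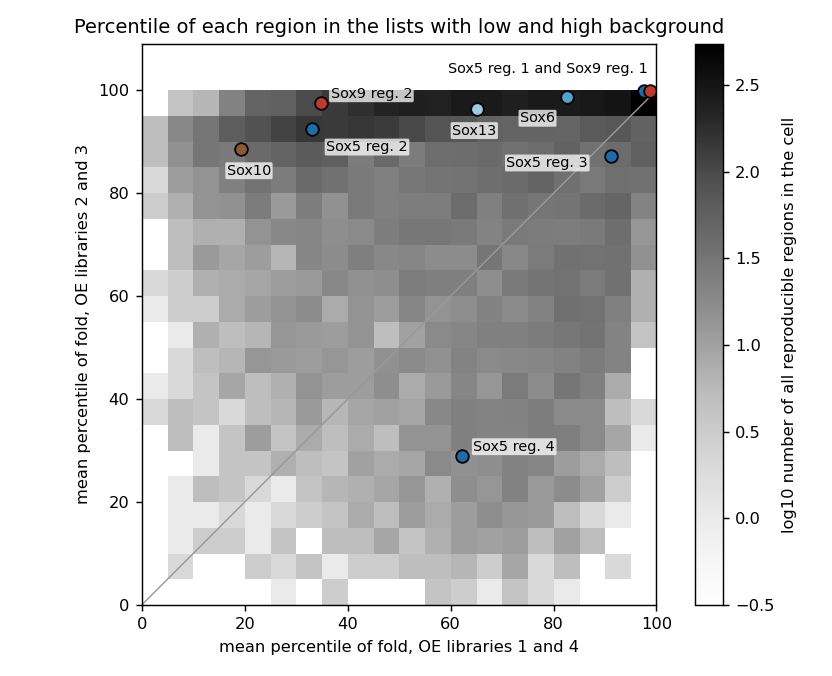
Each coloured point is 1 of the 9 regions, by its mean percentile of fold in OE libraries 1 and 4 (horizontal axis) and in OE libraries 2 and 3 (vertical axis), over grey cells that count all 10375 regions on a log10 scale. The strongest regions of Sox5 and Sox9 lie in the upper right corner near the line of equal percentile, and Sox10 lies farthest above that line.

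**Figure D4:**
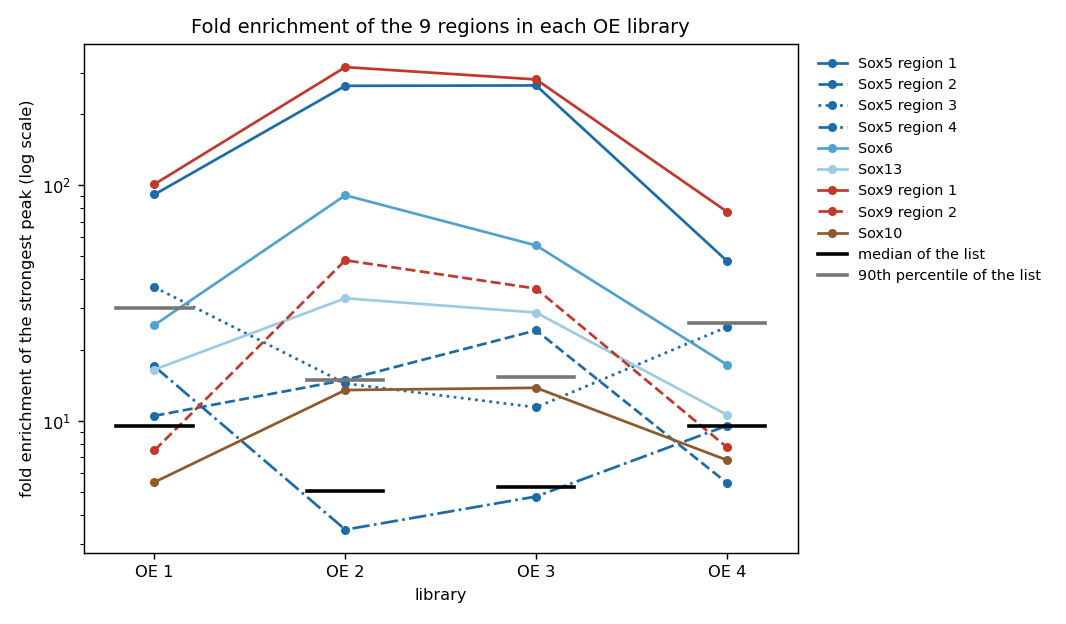
Points give the fold enrichment of the strongest peak in each of the 9 regions (vertical axis, log scale) for OE libraries 1 to 4 (horizontal axis), joined by region, with bars for the median and 90th percentile of each whole list. The region inside Sox9 and the strongest Sox5 region lie above the 90th percentile in all 4 libraries, while Sox10 lies below the median in libraries 1 and 4.

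The KO ChIP lists were set beside these 9 regions at their most common background. In OE libraries 2 and 3, whose background was close to that of the KO ChIP libraries, 8 regions had folds above 3.66 and 3.61, the smallest folds listed at background in KO libraries 2 and 3. Those limits hold at the most common background of the KO lists, whose median folds of 3.51 and 2.88 lay below them. The KO background at these regions is not known, and whether a peak there would have been listed was not tested. No KO peak was listed in the regions, but the definition of a region requires this. Without the removal of regions touched by KO or input peaks, the count at these genes was also 9. For the Sox5 region at the gene's higher-coordinate end, the fold of 3.45 in OE library 2 was below both limits. Its fold of 4.77 in OE library 3 was above both, so the OE libraries differ on whether it passed them.

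Most sites at these genes were not reproducible. OE peaks at the 6 genes merged into 107 sites, of which 9 had all 4 libraries (8.41%, against 9.19% of all 119237 merged sites in the genome). Another 53 were in OE libraries 2 and 3 alone (49.5%, against 45.3%), 39 were in 1 library, 5 were in 3 libraries, and the Sox13 start was the single site in OE libraries 1 and 4 alone. These shares were near those of the genome.

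Genes whose strongest region had the most similar folds were sought among the 6633 protein-coding genes with a region, by Euclidean distance of log2 fold over the 4 OE libraries. For Sox9 these were Cbfa2t3 (distance 0.23) and Oscar (0.26), and for Sox5 they were Klc4 (0.19) and Pde4b (0.25). For Sox6 they were Golm2 (0.07) and Ankrd50 (0.16). Sox13 was closest to Abl2 (0.15) and Ppcdc (0.17), and Sox10 to Fam167a (0.21) and Ttll8 (0.23). Each distance is a description of folds and says nothing of function.

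The rest of the Sox family gave the nearest comparison. Of the 14 other Sox genes, 7 had a region, against 5 of 6 SoxD and SoxE genes and 30.3% of all genes. By mean percentile the strongest were at Sox12 (100.0), with folds of 506, 808, 824 and 307, and at Sox11 (96.7), with 44.9, 156, 149 and 30.3. Both encode SOXC factors of neural progenitors. Sox2, a pluripotency and neural progenitor factor, was level with Sox11 at 96.6, and its folds of 36.9, 220, 127 and 35.0 were higher than those of Sox11 in OE libraries 2 and 4. Sry, the testis-determining gene, and Sox3 had none. In order of mean percentile over all 20 Sox genes, Sox9 and Sox5 followed Sox12, while Sox10 was below Sox15.

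**Figure D5:**
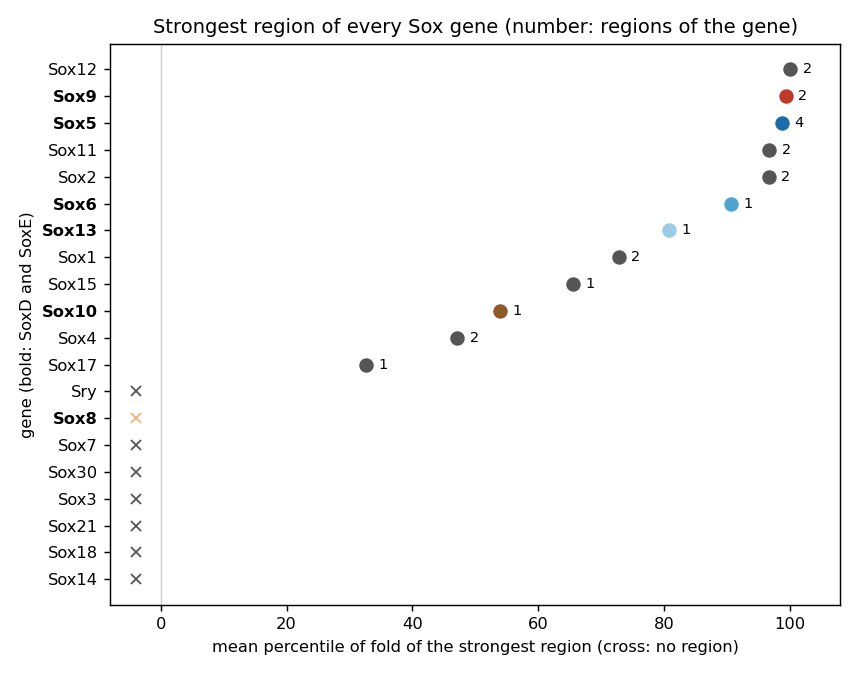
Points give the percentile of fold, averaged over the 4 OE libraries (horizontal axis), of the strongest reproducible region of each of the 20 Sox genes, with the number of regions beside each point and SoxD and SoxE genes in bold. Crosses mark genes with no region, among them Sox8, and Sox9 and Sox5 stand below Sox12 alone.

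Genes that work with the SoxD and SoxE factors were counted in the same way. Of 20 neural crest specifier and border genes, 14 had a region, with the highest mean percentiles at Pax3 (97.0) and Ets1 (93.6), and Zic1 and Msx1 had none. Of 15 SoxE targets and partners in crest derivatives, 7 had a region, led by Egr2 (95.5), the myelination factor, and by the melanocyte factor Mitf and the Schwann cell factor Pou3f1 (both 93.7). Dct and Tyr, which encode melanin enzymes, had none. Of 14 genes listed as chondrogenic targets of the SOX trio, 3 had a region: Runx3 (82.6), Col9a3 (51.1) and Runx2 (42.9). Runx2 and Runx3 encode transcription factors and not cartilage matrix proteins, and whether they are targets of the trio was not tested. Besides these, Col9a3 alone had a region, and the cartilage matrix genes Col2a1 and Acan had none. These counts stand against 30.3% of all genes and were not tested.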

How the data were processed

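Reads were handled with Trimmomatic, BWA and Picard and peaks were called with MACS2, and the builds named are mm10 and GRCm38.p5, per the submitters' processing notes. Versions, settings and the caller's control were not given in the sources used here. The control can change which peaks are listed. Each of the 7 peak lists the authors deposited that were used here belongs to 1 library, not to pooled samples. Its fold enrichment is the authors' ratio over local background, read here as having 1 added to both terms. The −log10 of the p-value and q-value are also deposited, with every deposited q-value at most 0.01. The deposited score served for a check of the columns. Fold was used for ranks inside one list, and folds from several lists are set together only descriptively.

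The analysis ran in Python 3.11.15 (numpy 2.4.6, scipy 1.17.1, matplotlib 3.10.9) on the 21 main chromosomes. Coordinates count from 1 on mm10, and gene positions came from RefSeq GRCm38.p6, where all 6 genes matched. Summit pileup was recovered for 207 of 207 peaks at the 6 genes from fold and p-value, to within 0.005 of the −log10 p. Peaks sharing 1 bp were merged; a region's position is the median of the libraries' summits, and one inside several genes counted for each. Read totals were not used, and the background pileup was taken in place of depth, although the caller's control was not given. The single tested value used an exact permutation of mean log2 values, whose p measures only the spread between these libraries. Procedures were tested on simulated data. The planned E-box search at summits needs a genome and was replaced by RefSeq promoter windows.

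The text names the 6 genes with all regions, the 2 genes closest in fold to each, and from each list the 2 highest by mean percentile and the first 2 with none; sites not in all 4 libraries were chosen after their values were seen. The members and lists were chosen with earlier results of these data known. Alternatives covered the q-value limit, libraries required, overlap, list length, removal of KO peaks, distance, pseudocount and leaving out each replicate.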

Additional observations from a re-analysis of the deposited data

Results flagged for a closer look

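At Sox10 the summit of the strongest peak in OE library 1, at 79163575, lay far from the summits of the other 3 OE libraries. The gap to the nearest of them was 0.975 of the whole range, above Dixon's critical value for 4 samples. OE library 1 listed a pair of peaks in the region with the same fold of 5.49, and the one with the lower start was taken. The other has its summit at 79164703, next to 79164693, 79164702 and 79164674 in OE libraries 2, 3 and 4. This was the single case among 33 sets of 4 values checked, and chance gives about 1 in 20.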

How the results depend on the processing

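The number of genes with a region was 5 and fell to 3 (Sox5, Sox6 and Sox9) when only gene bodies were counted. The 9 regions became 5 at a −log10 q-value of at least 10, 14 when 3 of 4 OE libraries sufficed and 68 when 2 of 4 did. With OE libraries 2 and 3 alone, an alternative chosen after seeing the data, there were 67. Leaving out each OE library in turn gave 5 to 5 genes and 9 to 13 regions. The difference of OE from KO peaks ranged from 4.74 to 5.68 when each library was left out, with exact permutation p of 0.1 or 0.2, the smallest those designs allow. With a replicate block over the shared numbers 2 and 3 it was 6.48 (exact sign-flip permutation p 0.5, again the smallest possible). These numbers share no stated batch, and deviations of same-numbered libraries correlated at −0.07 over the 49 genes with a KO peak. Of the 90 counts at single genes under alternatives, 28 moved and 62 did not. The mean folds of the strongest regions ranged over 134 to 207 at Sox5, 32.7 to 57.2 at Sox6 and 18.6 to 26.1 at Sox13. They ranged over 153 to 233 at Sox9 and 8.57 to 11.4 at Sox10. Leaving out 1 of 4 values cannot move their mean by 1 SD, so staying within that spread is no result. At the background of 1.00 to 1.20 fragments, the smallest folds listed in OE libraries 1 and 4 were 4.00 and 4.09. Whether background bears on the sites not listed there was not tested. The KO lists give no level below their smallest fold.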
